A study of Homo sapiens with 2 samples.

Results

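The replication-dependent histone genes are the clustered genes whose symbols name them H1-1 to H1-6, H2AC, H2BC, H3C or H4C with a number, and 66 of the 38637 genes in the table carried such a symbol. They were chosen by symbol alone and divide into 6 linker histone H1 genes, 16 H2A, 17 H2B, 13 H3 and 14 H4 genes. Histone genes listed under other symbols (H4-16, H2AW, H2BU1, H3-4 and H2BS1) were not members by this rule.

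The RNA was of H1299 cells, a lung carcinoma line that grew out of a human lymph node metastasis and is widely used as a model of non-small cell disease. There was 1 library with no treatment by its label, whose title ends in nc, and 1 library labelled as PHF12 KD, whose title carries the prefix si. Both are labelled wild type by genotype, while the sources used here do not give the time after knockdown, the oligonucleotides or the number of cultures behind a library. PHF12 is a PHD finger protein of a Sin3 and histone deacetylase corepressor complex. By its title, the series concerns PHF12, HDAC1 and the EGFR and AKT pathway. With 1 library a group there is no replicate check. Every interval below is a 95% interval for counting error only, and every difference is between these 2 libraries and not between the conditions.

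PHF12 itself, the targeted gene, had 947 counts under the control label and 756 under the knockdown label, a fold of 0.753 (0.683 to 0.829). HDAC1 had 2936 and 4330 counts, a fold of 1.39 (1.33 to 1.46). The line's keratin and vimentin genes KRT8, KRT18 and VIM were abundant in both libraries. Markers of leukocytes, endothelium, fibroblasts and alveolar cells, 13 of them analysed, summed to at most 4.55 TPM a cell type, and PTPRC and CD3E had no count in either library.

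Histone proteins package DNA into nucleosomes, in which H2A, H2B, H3 and H4 form the core and H1 binds the linker. The clustered genes supply them in bulk while DNA is copied in S phase. Their mRNAs usually lack introns and a poly(A) tail: the 3′ end is cut just after a conserved stem-loop, which the stem-loop binding protein SLBP holds, with the help of the U7 small nuclear ribonucleoprotein. Some of these genes also give polyadenylated transcripts that run past the stem-loop to a poly(A) signal. Both libraries were selected with oligo(dT), so the counts follow polyadenylated histone transcripts and whatever tail-less RNA was carried over, and they do not measure the bulk of S-phase histone mRNA.

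The stem-loops show the element after which the 3′ end of the tail-less form is cut. A search of the GENCODE release 29 transcripts of all 66 members, by the form of the element (a 6-base stem opening with GG and a 4-base loop opening with TT), found it in 26 members. Many of the other models end at the coding sequence, so no match says only that these letters are not in the annotated transcript. Capitals mark the paired stem and lower case the loop, and the 4 versions were as follows.
H2A, H2B and H3 form, 15 members including H2AC6, H2BC8 and H2BC21: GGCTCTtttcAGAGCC
H2BC4, H2BC5, H2BC7 and H3C8: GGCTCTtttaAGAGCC
H4C2, H4C5, H4C8 and H4C11: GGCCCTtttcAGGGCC
H4C9, H4C14 and H4C15: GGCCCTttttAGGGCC

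A poly(A) signal (AATAAA or ATTAAA) stood in the last 50 bases of at least 1 annotated transcript of 22 members, and 19 of these also carried the stem-loop. In H2BC21 the longest transcript continues for 1729 bases after the stem-loop and in H2AC6 for 1128. The authors' gene models are mostly short: 58 members were listed with 386 to 797 bases and 8 with 887 to 3239 bases. For 17 members, H2AC6 among them, the longest GENCODE transcript exceeds the listed length by over 300 bases. The listed model of H2AC6 has 519 bases and ends at 26124690, so it leaves the extension out, while that of H2BC21, with 2224 bases, is at least as long as the extended transcript.

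Promoters are shown for 3 members that the results turn on, H2BC5 for its fold, and H2BC8 and H2BC17 because each shares its start region with an H2A gene. They are RefSeq sequences of GRCh38.p14, 250 bases before to 50 after the annotated start. Capitals mark matches on either strand to the octamer ATTTGCAT, a site of OCT1, and to CCAAT. They also mark a TATA box (TATAAA or TATATA), which was searched on the printed strand only.
H2BC5 (chr6:26157871-26158170, plus strand): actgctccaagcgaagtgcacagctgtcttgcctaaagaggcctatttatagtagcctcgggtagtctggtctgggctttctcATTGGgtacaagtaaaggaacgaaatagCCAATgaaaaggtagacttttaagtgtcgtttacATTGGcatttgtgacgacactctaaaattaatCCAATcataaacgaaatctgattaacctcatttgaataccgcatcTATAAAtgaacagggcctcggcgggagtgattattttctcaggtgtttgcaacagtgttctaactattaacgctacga
H2BC8 (chr6:26216639-26216938, minus strand): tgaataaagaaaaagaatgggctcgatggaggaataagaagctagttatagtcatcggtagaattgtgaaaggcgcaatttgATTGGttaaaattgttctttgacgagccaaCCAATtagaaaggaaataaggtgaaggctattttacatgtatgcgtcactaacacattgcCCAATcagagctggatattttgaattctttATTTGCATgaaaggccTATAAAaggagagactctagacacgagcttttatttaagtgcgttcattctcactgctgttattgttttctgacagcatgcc
H2BC17 (chr6:27893175-27893474, plus strand): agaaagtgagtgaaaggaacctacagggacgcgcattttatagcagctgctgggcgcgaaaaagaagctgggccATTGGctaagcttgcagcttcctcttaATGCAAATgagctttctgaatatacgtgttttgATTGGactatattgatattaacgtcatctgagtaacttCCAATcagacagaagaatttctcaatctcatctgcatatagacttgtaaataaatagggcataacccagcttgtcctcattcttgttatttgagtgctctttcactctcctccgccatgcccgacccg

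The octamer was found in 14 of 17 H2B and 11 of 15 H2A promoters, in 1 of 11 H3 promoters and in none of the 6 H1 and 12 H4 promoters matched, against 1.77% of all 35116 promoters. CCAAT or its complement was found in 52 of the 61 member promoters matched (34.6% of all promoters). A TATA word, searched without its complement, was found in 41 of 61 (10.2% of all). H2BC5 had no exact octamer in this window. The log2 ratio of summed counts, knockdown over control, was 0.22 (0.18 to 0.27) for members with the octamer. It was 0.24 (0.16 to 0.32) for those without it, so the sums did not separate by this word. However, H2BC12 alone gave 4629 of the 7337 control counts with the octamer. Among members past the filter given below, the median log2 fold change was 0.20 with the octamer and 0.11 without it. The interval lay above 0 for 7 of 14 with it and 2 of 11 without it, and below 0 for 0 and 1. The difference between these groups was not tested.

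The knockdown library held more histone counts than the control library, and most of the extra counts were of H2B genes. All members together had 9530 control and 11819 knockdown counts, of 24740581 and 26084594 counts in all, a ratio of 1.17 after scaling for library size (1.14 to 1.20). H2B genes had 6388 and 8255 counts, a ratio of 1.22 (1.18 to 1.26), and H3 genes 495 and 642, a ratio of 1.22 (1.09 to 1.38). H2A genes had 1434 and 1616 counts, a ratio of 1.06 (0.989 to 1.14). H1 genes had 1000 and 1085 counts (1.02, 0.938 to 1.12), and H4 genes 213 and 221 (0.978, 0.807 to 1.19). The intervals of H2A, H1 and H4 include no difference. In cultures of this kind, more cells in S phase and more histone RNA per cell cannot be told apart.

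The signal was uneven, since 1 gene held nearly 1 in 2 histone counts. H2BC12, an H2B gene listed with 887 bases, took 48.6% of the members' counts in the control library (Clopper-Pearson interval 47.6 to 49.6) and 47.0% in the knockdown library (46.1 to 47.9). Without it the log2 ratio of the 65 remaining members was 0.27 (0.22 to 0.32), and the 16 remaining H2B genes, with 1759 and 2702 counts, had a ratio of 1.45 (1.36 to 1.54). The 8 members with the longer listed models held 63.7% of the control and 66.2% of the knockdown counts, and their ratio was 1.22 (1.18 to 1.26), against 1.09 (1.04 to 1.14) for the 58 short models. Members with an annotated poly(A) signal had a ratio of 1.30 (1.24 to 1.36) and those without one 1.11 (1.07 to 1.15). The group without one held 6467 control counts, 4629 of them of H2BC12, whose only GENCODE transcript has 381 bases against 887 listed. The sizes of both ratios thus depend on how H2BC12 is annotated. The splits by listed length and by poly(A) signal were made after the values were seen.

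Of the 66 members, 25 averaged at least 1 CPM (counts scaled to a library of 1000000), 41 were below, and 6 of these had no count in either library (H2AC1, H2BC1, H3C11, H3C14, H4C7 and H4C13), which allows a level of up to 0.122 CPM (control) and 0.115 CPM (knockdown). Where a fold change is given on the log2 scale, 0.5 CPM was added to both libraries, which draws weak genes towards 0, while ratios and folds with an interval have nothing added. Over the 25 members the median was 0.14, with 19 above 0 (76.0%), where the median over all 14559 genes past the same filter was −0.01 and 48.4% lay above 0. At least 1.5-fold higher were 4 members (H2BC5, H2BC8, H2AC17 and H3C8), 16% against 1.33% of all genes, and at least 1.5-fold lower were none, against 1.41%. With 1 CPM added in place of 0.5 the 4 became 1. The counting interval lay above 0 for 9 members, 36.0% against 20.3% of all genes, and below 0 for 1, against 20.9%. Members have fewer counts than most genes, so their intervals are wide.

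**Figure D1:**
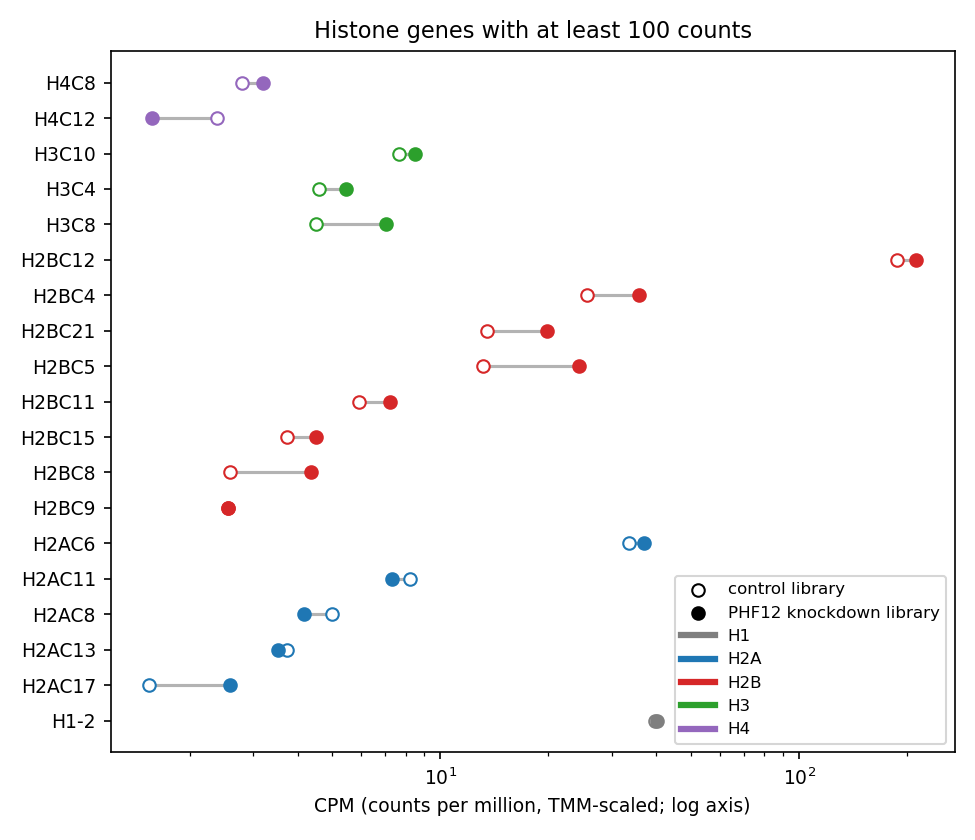
Level of each of the 19 histone genes with at least 100 counts over both libraries, in CPM on a log axis, with open circles for the control and filled circles for the knockdown library and colours for the histone type. H2BC12 stands far to the right at 188 and 212 CPM, and most H2B and H3 genes have the filled circle to the right of the open one.

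All 10 H2B genes that passed the filter lay at or above the control level, with a median log2 fold change of 0.37 and values from 0.00 for H2BC9 to 0.86 for H2BC5, and 6 of them had a counting interval above 0. H2BC17 passed the filter, at a mean of 1.31 CPM, only through its knockdown level of 1.64 CPM, since its control level was 0.973 CPM. It is among the 6, with a lower bound of 0.0037 for its log2 ratio. H2BC13, just under the filter with 30 and 19 counts, went the other way at −0.48, so the uniform direction holds only for the genes that passed.

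H2BC5 had the highest fold of all 25 members. The gene spans 26158008 to 26171349 on the plus strand of chromosome 6. Its counts were 324 (control) and 635 (knockdown), or 27.6 and 51.9 TPM, the authors' level per gene length, scaled to a sum of 1000000. The fold was 1.85 (1.61 to 2.12). Its listed model of 1320 bases spans an intron, and GENCODE gives it a short transcript of 1 exon that ends just after the stem-loop and a spliced one that leaves the stem-loop out and ends at a poly(A) signal.

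H2BC8 had 64 and 114 counts, 14.7 and 25.2 TPM, and a fold of 1.68 (1.23 to 2.32). H2BC21, in the chromosome 1 cluster, had 333 and 520 counts, 16.8 and 25.2 TPM, and a fold of 1.47 (1.28 to 1.69). H2BC4, on the minus strand of chromosome 6 from 26113170 to 26123926, had 634 and 938 counts, 29.4 and 41.7 TPM, and a fold of 1.40 (1.26 to 1.55). Each of these was higher in the knockdown library by more than the counting error of its reads.

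H2BC12 was by far the highest H2B gene per length, with 587 and 675 TPM, rank 221 and 179 among 19439 protein-coding genes. It had 4629 and 5553 counts, and its fold of 1.13 (1.09 to 1.18) was the third smallest of the 10 H2B genes. H4C9 lies within its span on the other strand, and without a stated strand setting reads of the overlap cannot be told apart. H2BC11 had 146 and 189 counts and a fold of 1.22 (0.978 to 1.53), and H2BC15 had 92 and 118 and a fold of 1.21 (0.913 to 1.61), so neither differed beyond counting error. H2BC9, with 63 and 67 counts, had a log2 ratio of 0.00 (−0.51 to 0.52). H2BC17 had 24 and 43 counts and H2BC7 30 and 34.

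**Figure D2:**
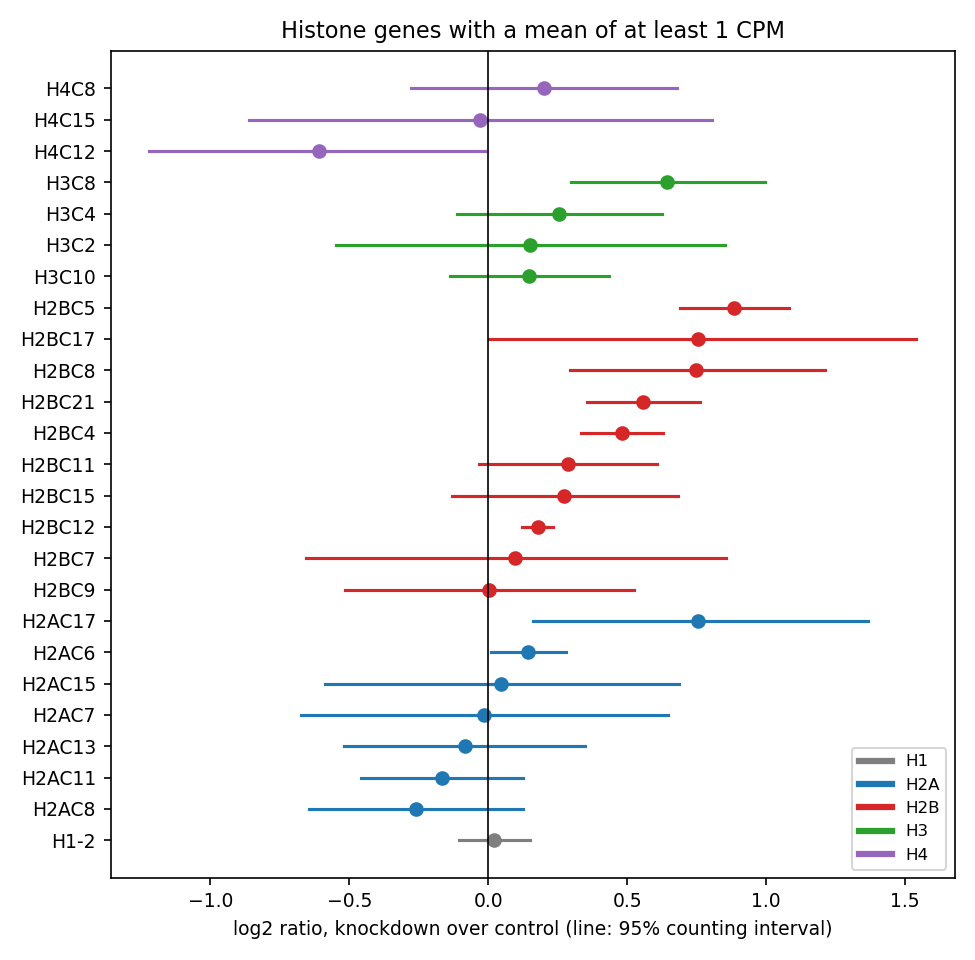
Log2 ratio of the knockdown over the control library for the 25 members averaging at least 1 CPM, with no pseudocount, where the line through each point is the 95% counting interval and colours give the histone type. H2B points lie at or right of 0 up to 0.89 for H2BC5, H2A points lie on both sides, and H4C12 at −0.61 is the lowest.

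H2A genes lay on both sides of the control. Of the 7 that passed the filter, 3 were above and 4 below 0, and the median was −0.01, near that of all genes, with a sign that changed with DESeq2 size factors. H2AC6, the highest H2A gene per length, had 827 and 969 counts, 179 and 201 TPM, and a fold of 1.10 (1.01 to 1.21). H2AC17 had 38 and 68 counts and a fold of 1.69 (1.12 to 2.58), although only 16% of the 100-base windows of its GENCODE transcript are absent from the other members, so its reads are partly uncertain. H2AC11, with 203 and 192 counts, stood at 0.892 (0.728 to 1.09), H2AC8, with 123 and 109, at 0.836 (0.640 to 1.09), and H2AC13, with 92 in each library, at 0.943 (0.699 to 1.27). None of these last 3 differed beyond counting error.

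All 4 H3 genes that passed the filter were above 0, with a median of 0.19. H3C8 had 111 and 184 counts, 25.2 and 40.0 TPM, and a fold of 1.56 (1.23 to 2.0). H3C10, the highest H3 gene per length at 43.7 and 49.3 TPM, had 189 and 222 counts and a fold of 1.11 (0.908 to 1.35). H3C4 had 113 and 143 counts and a fold of 1.19 (0.926 to 1.54), and its span holds H2AC7 on the same strand. Only H3C8 of the H3 genes had an interval above 0.

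Among H4 genes, 3 passed the filter, with a median of −0.02. H4C8 had 69 and 84 counts and a fold of 1.15 (0.825 to 1.60). H4C12 had 59 and 41 counts and a fold of 0.655 (0.429 to 0.993), the only one of the 25 members with an interval below 0. Every 100-base window of its GENCODE transcript also occurs in another member, and 11 members, H4C12, H2AC17 and the near-identical chromosome 1 genes H2AC18 and H2AC19 among them, had under 50% of such windows to themselves. Those 11 had 244 and 260 counts in all, a log2 ratio of 0.01 (−0.25 to 0.26). The other 55 stood at 0.23 (0.19 to 0.27).

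The linker histone H1-2 was the only H1 gene past the filter. It was the third highest member per length, at 151 and 156 TPM, and its 979 and 1054 counts gave a fold of 1.02 (0.930 to 1.11), so it was level within counting error. H1-1, H1-3, H1-4, H1-5 and H1-6, the last a testis form, had 1 to 10 control and 3 to 11 knockdown counts. Over all 41 members below the filter there were 246 and 295 counts, a ratio of 1.13 (0.952 to 1.34), with 23 higher, 12 lower and 6 at 0 in both. H2AC4, with 3 and 12 counts, was the only one of these with an interval above 0.

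The members with the loop of ttta, H2BC4, H2BC5, H2BC7 and H3C8, all passed the filter and had 1099 and 1791 counts together, a ratio of 1.54 (1.42 to 1.66). The 15 members with the loop of tttc on the same stem had 1836 and 2266, a ratio of 1.16 (1.09 to 1.24). This grouping was made after the values were seen, the smaller group rests mainly on H2BC4 and H2BC5, and the difference between the groups was not tested.

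By position, 55 members lie in the cluster on chromosome 6 from 25726063 to 27893891 (hg38) and 11 in the cluster on chromosome 1 from 149782689 to 149887965. The chromosome 6 members had 9117 and 11203 counts, a ratio of 1.16 (1.13 to 1.19), and a median of 0.14 over 23 genes. The chromosome 1 members had 413 and 616 counts, a ratio of 1.41 (1.24 to 1.60), but H2BC21 alone gave 333 and 520 of them, and only H2BC21 and H4C15 passed the filter. On either side of a wide gap in the chromosome 6 cluster, the ratio was 1.22 (1.17 to 1.28) for the 34 members up to 26285534 and 1.12 (1.08 to 1.16) for the 21 from 27132316, where H2BC12 lies. The summed ratio was thus above 1 in each stretch. In the second stretch of chromosome 6, however, H2BC12 alone gave 4629 of 5636 control and 5553 of 6690 knockdown counts.

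Many H2A and H2B genes stand head to head and share the DNA between their starts. There were 13 pairs of members on opposite strands with at most 1000 bases between their starts, 11 of an H2A and an H2B gene and 2 of an H2B and an H3 gene (H2BC7 with H3C4 and H2BC9 with H3C7). Both partners passed the filter in 6 of the H2A and H2B pairs, and both were above 0 in 3 of these and on opposite sides of 0 in the other 3. The pair of H2BC7 and H3C4, also both above 0, shares H2BC7 with the pair of H2AC7 and H2BC7, since the listed span of H3C4 holds H2AC7. H2AC17 and H2BC17, 240 bases apart, had log2 ratios of 0.75 (0.16 to 1.37) and 0.76 (0.00 to 1.54), nearly the same. H2AC8 and H2BC8, 233 bases apart, had −0.26 (−0.64 to 0.12) and 0.75 (0.29 to 1.21), and their intervals do not overlap. H2AC6 and H2BC4, 246 bases apart, had 0.14 (0.01 to 0.28) and 0.48 (0.33 to 0.63), again without overlap. H2AC11 and H2BC11 had −0.17 (−0.46 to 0.13) and 0.29 (−0.03 to 0.61), which overlap. The ratios of 2 partners were thus not always alike, and the listed models of H2BC4 (2426 bases) and H2AC6 (519 bases) cover very different parts of their transcripts.

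**Figure D3:**
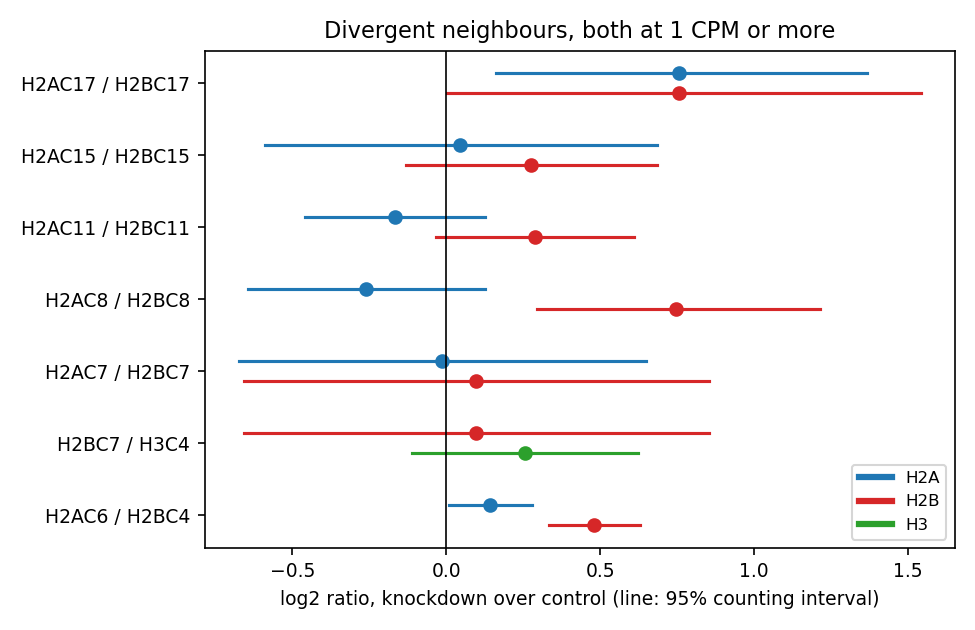
Log2 ratio of the knockdown over the control library for the 7 divergent pairs in which both genes averaged at least 1 CPM (H2BC7 stands in 2 of them), with 95% counting intervals as lines. The partners lie together in H2AC17 and H2BC17, near 0.76, and apart in H2AC8 and H2BC8, at −0.26 and 0.75.

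The genes that make and handle histone mRNA had smaller medians than the 25 members together (0.14). None of them was 1.5-fold higher or lower with 0.5 CPM added, although LSM11 came close, at a fold of 0.667 without it. Of 25 genes of histone 3′ processing and decay, 24 passed the filter, 15 above and 9 below 0, with a median of 0.04. Of the 24, 6 had an interval above 0 and 4 below, near the shares over all genes (20.3% above and 20.9% below). Those shares are the background for the lists that follow. LSM11, an Sm-like subunit particular to the U7 particle, was the lowest, at 464 and 328 counts (log2 ratio −0.59, −0.79 to −0.38). Its partner LSM10, with 794 and 872 counts, stood at 0.05 (−0.09 to 0.19). SLBP had 2987 and 3020 counts and a ratio of −0.07 (−0.14 to 0.00), level within counting error. CPSF3, the nuclease that cuts histone and other pre-mRNAs, had 1767 and 2123 counts (0.18, 0.09 to 0.27), and its partner CPSF2 had 3499 and 4362 (0.23, 0.17 to 0.30). SNRPE was at 0.16, and the decay factor UPF1 and CASP8AP2, known as FLASH, were at −0.15 and −0.13.

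Of 10 genes of histone gene transcription, 6 were above and 4 below 0, with a median of 0.04, and 4 had an interval above 0 and 4 below. The coactivator of clustered histone genes, NPAT, stood at 0.19 (0.06 to 0.32) with 888 and 1073 counts. HINFP, a factor of H4 promoters, stood at 0.19 (0.04 to 0.33) with 692 and 835 counts. The cyclin E genes, whose kinase activates NPAT, were lower, CCNE2 at −0.37 (−0.58 to −0.16) with 420 and 344 counts and CCNE1 at −0.19 (−0.37 to −0.01). E2F1, a driver of S-phase genes, was at −0.30 (−0.44 to −0.15), and the phosphatase gene CDC25A at 0.13 (0.00 to 0.26).

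Histone chaperones, listed with import and acetylation factors, had a median of −0.06 over 23 genes, with 8 intervals above and 8 below 0. CABIN1 and UBN1, of the HIRA complex, were at 0.19 and 0.18 and the FACT subunit SUPT16H at 0.15, while NAP1L4 was at −0.39 (−0.48 to −0.31), TONSL at −0.28 and the importin IPO5 at −0.22. Replication-independent variants, which carry introns or poly(A) tails and are made outside S phase as well, had a median of 0.00 over 11 of 12 genes, 5 above and 6 below 0 (0.017 with DESeq2 size factors). H2AX, the variant marked at DNA breaks, and H1-10 were both at −0.20, and H2AJ was highest at 0.15 (0.07 to 0.24), with CENPA, the centromere variant of H3, at 0.15 and H3-3A at 0.09. Their summed counts, 49736 and 50262, gave a ratio of 0.953 (0.941 to 0.965), and this interval does not overlap that of the clustered genes (1.14 to 1.20).

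DNA replication genes, which peak with S phase, lay mostly lower in the knockdown library, 25 of 34 below 0, with a median of −0.07, 13 intervals below 0 and 2 above. TYMS was at −0.73, CDT1 at −0.45 and MCM2 at −0.34, while RFC1 was at 0.12 and TIMELESS at 0.11. The summed counts gave a ratio of 0.897 (0.888 to 0.905), opposite in direction to the clustered histone genes.

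**Figure D4:**
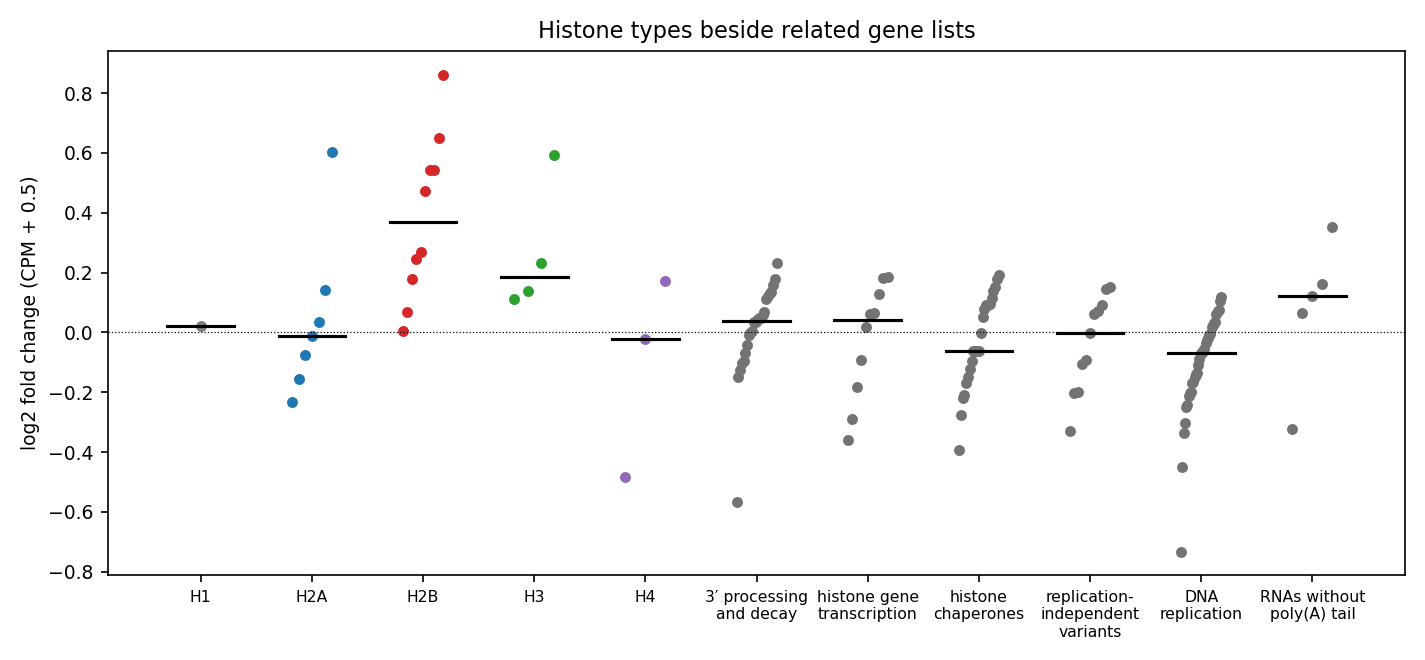
Log2 fold change (CPM plus 0.5) of each gene averaging at least 1 CPM, for the 5 histone types in colour and 6 related lists in grey, with a black bar at each median. The H2B median of 0.37 is the highest bar and the replication genes have the lowest, at −0.07.

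RNA without a poly(A) tail was measured beside these results, since carry-over of such RNA could enter histone counts, and its part in them was not tested. Of 24 listed genes of this kind 5 passed the filter, 4 above and 1 below 0, with a median of 0.12 and summed counts of 1599 and 1991, a log2 ratio of 0.23 (0.14 to 0.33), beside 0.23 (0.19 to 0.26) for the histone genes. That sum rests on the signal recognition particle RNA copy RN7SL2, at 862 and 1171 counts (0.36, 0.23 to 0.49), while RN7SL1 had 538 and 598 counts, at 0.07 (−0.10 to 0.24), and RN7SK 75 and 61. Among tail-less gene types, the small cytoplasmic RNAs, nearly all of them these RN7SL copies, were higher at 0.25 (0.15 to 0.35) on 1425 and 1798 counts. The log2 ratios of other types were −0.03 (−0.11 to 0.04) for small nucleolar RNAs, 0.00 (−0.35 to 0.36) for small nuclear RNAs on 130 and 138 counts and −0.17 (−0.18 to −0.15) for ribosomal RNA. RNase MRP RNA, with 25 and 30 counts, and telomerase RNA, with 4 and 8, had intervals that include 0. SNORD3A, a small nucleolar RNA of the list below the filter, had 9 and 30 counts and an interval above 0, at 1.65 (0.54 to 2.91). Copies of these genes are near-identical, so their counts are uncertain too.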

How the data were processed

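Poly(A)-selected RNA-seq of 2 libraries was used. The tools named are HISAT2 (alignment) and HTSeq (counting) and the build is hg38, per the submitters' processing notes. Not given in the sources used here: versions, strand handling, and the treatment of reads that map to several copies. As the file headers show, the authors deposited raw counts per gene and TPM values, per the file headers. Library sizes were scaled with TMM factors of edgeR 4.0.16 (R 4.3.3), 0.997 for the control and 1.00 for the knockdown. Members were found by symbol, and genes averaging at least 1 CPM were used for fold changes (pseudocount 0.5). Ratios and folds with intervals carry no pseudocount, and the interval is the exact conditional Clopper-Pearson 95% interval of 2 Poisson counts. It covers counting error only. The libraries held 24740581 and 26084594 counts. With 1 library a group no p-value was computed. The ratio and its interval were tested on simulated data.

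Genes named were, among members, those with at least 100 counts over both libraries, and in each other list up to 3 highest and 3 lowest whose interval leaves out 0. A gene that this rule names is not reported here. Further members (such as H2BC17, H2BC7, H2BC13 and H2AC4) and the genes SLBP, LSM10, RN7SL1, RN7SK and SNORD3A were named after their values were seen. Members and lists were chosen with earlier results of these data known. Members were matched by gene identifier to GENCODE release 29 transcripts (66 of 66) and RefSeq promoters (61 of 66). Other scalings (total counts, or size factors of DESeq2 1.42.0) were tried, as were other pseudocounts, filters and folds, the authors' TPM, and leaving out the member with the most counts. The splits by listed length, poly(A) signal, stem-loop, unique windows and the gap on chromosome 6 were added after seeing the data. Scripts ran in Python 3.11.15 with scipy 1.17.1, pandas 2.3.3, numpy 2.4.6 and, for plots, matplotlib 3.10.9.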

Additional observations from a re-analysis of the deposited data

How the results depend on the processing

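Of 115 alternative values, 97 stayed within the counting error of the group's summed counts (for numbers of members, within 1.5 times). For medians this is a loose measure where a group has few counts, such as H4. Signs changed only in medians near 0 (H2A and the variants). With a minimum of 5 CPM the median log2 fold change was 0.23 over 11 members, 0.20 for chromosome 6, 0.54 for chromosome 1 (H2BC21 alone) and 0.47 for H2B, and no H4 gene was left. Without a filter the H2B median was 0.21 and the H2A median 0.11. The 4 members at least 1.5-fold higher became 1 with a pseudocount of 1 CPM, 2 with a minimum of 5 CPM, 0 at 2-fold and 7 at the lowest fold tried, at which 1 member was lower. Without its member with the most counts, the log2 ratio of summed counts was 0.27 for all members (0.23 with it). It was 0.53 for H2B (0.29 with H2BC12) and 0.48 for H1 (0.03 with H1-2). That H1 value rests on 5 genes with 1 to 10 control and 3 to 11 knockdown counts each, so its counting error is large. With DESeq2 size factors the list medians were 0.057 for 3′ processing, −0.042 for chaperones, 0.017 for variants and −0.050 for replication genes. The H2A median of −0.01 turned to 0.00 or above with those factors and to 0.01 with the authors' TPM. The median of all genes shifted by 0.018 with DESeq2 size factors and by 0.008 with total counts. No paired analysis was possible because each group has 1 library. Depth limits many members: 29 of 66 had under 10 counts in both libraries.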
